A study of Mus musculus with 15 samples.

Results

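This section describes acetylation of histone H3 at lysine 27 (H3K27ac) around 7 genes, the PDGF receptor genes Pdgfra and Pdgfrb, the related receptor gene Kit, and the PDGF ligand genes Pdgfa, Pdgfb, Pdgfc and Pdgfd, in 1 mouse tumor library. A listed peak belonged to a gene when it overlapped the RefSeq span of that gene or the 50 kb on either side. By this rule 156 of the 122375 peaks of the list were members, which is 0.127% of the list. The peaks were divided into promoter peaks (within 2 kb of a start site), gene body peaks and flank peaks. The series held 15 CUT&RUN libraries of fusion-positive rhabdomyosarcoma, 6 MCP and 3 TCP libraries with an H3K27ac antibody and 3 MCP and 3 TCP libraries with control IgG. MCP tumors carried Myf6-Cre together with Cdkn2a(Flox/Flox), with Pax(3P3F/P3F) and with R26-tdTom, and TCP tumors carried the same alleles with Tek-Cre in place of Myf6-Cre. Tumors of both kinds therefore lacked Cdkn2a, expressed PAX3-FOXO1 and carried a tdTomato reporter wherever Cre had acted, that is, in cells with activity of Myf6, a muscle gene, or of Tek, an endothelial gene. The list used here came from the H3K27ac library of MCP replicate 5, made from live tumor cells sorted by exclusion of DAPI, so other live cells of the tumor may be in it. The remaining libraries were not used here. With 1 library there is no replicate error and no test between conditions. Each interval of a fragment count covers counting error only, and each interval of a median or a share treats the peaks as independent.

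PDGFs are secreted dimers that bind receptor tyrosine kinases on neighboring cells or on the cell that made them. PDGF-A and PDGF-C act mainly through PDGFRα, PDGF-B through both receptors, and PDGF-D mainly through PDGFRβ. KIT is a related kinase whose ligand is stem cell factor, the product of Kitl, and its gene lies beside Pdgfra. Bound receptors recruit adaptors and enzymes that lead to RAS, MAP kinase and PI3K signaling. In muscle, PDGFRα marks fibro-adipogenic progenitors and PDGFRβ marks pericytes, while KIT is typical of mast cells and blood progenitors. H3K27ac is found at active promoters and enhancers, and CUT&RUN maps it by releasing the DNA beside an antibody with a tethered nuclease.

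The promoter peak of highest fold enrichment at each of the 4 genes that had one is shown here, together with the strongest other peak at Pdgfc and at Pdgfd, the genes with peaks in the gene body. Fold enrichment is the signal at the peak summit, scaled by 0.885 to the depth of the IgG library, over the local IgG background. A constant is added to both terms, so the listed value is below the plain ratio of fragments to background. For 57.7% of the member peaks the background was the lowest value in the list. Each sequence is the 300 bp around the summit in GRCm38 (mm10), written 5′ to 3′ on the strand of the gene. Capitals mark matches on either strand to the motifs CAGCTG and CAGGTG (E-boxes, bound by muscle bHLH factors), GTCACG (the core bound by the PAX paired domain), TAATNNATTA (bound by paired homeodomains), GTAAACA (forkhead), TGANTCA (AP-1) and GGAATG (TEAD).
Pdgfra promoter, chr5:75155988-75156287, plus strand: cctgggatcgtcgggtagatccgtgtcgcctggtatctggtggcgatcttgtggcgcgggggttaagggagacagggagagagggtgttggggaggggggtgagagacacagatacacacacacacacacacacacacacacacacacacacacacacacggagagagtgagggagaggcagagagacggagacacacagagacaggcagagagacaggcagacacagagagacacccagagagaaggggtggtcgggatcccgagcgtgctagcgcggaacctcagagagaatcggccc
Pdgfa promoter, chr5:138995997-138996296, minus strand: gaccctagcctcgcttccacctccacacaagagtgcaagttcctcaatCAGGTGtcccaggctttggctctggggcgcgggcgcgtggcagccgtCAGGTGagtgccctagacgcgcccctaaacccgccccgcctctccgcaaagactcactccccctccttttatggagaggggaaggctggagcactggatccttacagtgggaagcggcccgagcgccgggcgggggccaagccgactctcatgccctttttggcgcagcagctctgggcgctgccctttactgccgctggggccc
Pdgfc promoter, chr3:81038226-81038525, plus strand: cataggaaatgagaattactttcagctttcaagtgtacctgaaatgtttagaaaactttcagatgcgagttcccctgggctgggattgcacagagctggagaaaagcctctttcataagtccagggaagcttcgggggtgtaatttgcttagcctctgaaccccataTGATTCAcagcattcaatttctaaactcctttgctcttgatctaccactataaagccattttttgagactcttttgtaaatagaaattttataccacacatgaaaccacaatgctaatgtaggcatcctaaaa
Pdgfc upstream flank, chr3:81017842-81018141, plus strand: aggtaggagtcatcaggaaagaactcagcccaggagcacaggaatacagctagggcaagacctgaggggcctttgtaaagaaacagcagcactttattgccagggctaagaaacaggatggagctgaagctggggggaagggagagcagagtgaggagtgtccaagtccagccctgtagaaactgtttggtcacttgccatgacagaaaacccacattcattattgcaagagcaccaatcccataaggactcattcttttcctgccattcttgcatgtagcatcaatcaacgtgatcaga
Pdgfd promoter, chr9:6168222-6168521, plus strand: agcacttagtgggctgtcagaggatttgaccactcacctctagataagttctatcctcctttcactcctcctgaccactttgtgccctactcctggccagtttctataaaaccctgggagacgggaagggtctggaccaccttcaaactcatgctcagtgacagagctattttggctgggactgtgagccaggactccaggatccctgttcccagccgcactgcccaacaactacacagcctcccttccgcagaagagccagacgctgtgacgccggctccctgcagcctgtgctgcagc
Pdgfd gene body, chr9:6336218-6336517, plus strand: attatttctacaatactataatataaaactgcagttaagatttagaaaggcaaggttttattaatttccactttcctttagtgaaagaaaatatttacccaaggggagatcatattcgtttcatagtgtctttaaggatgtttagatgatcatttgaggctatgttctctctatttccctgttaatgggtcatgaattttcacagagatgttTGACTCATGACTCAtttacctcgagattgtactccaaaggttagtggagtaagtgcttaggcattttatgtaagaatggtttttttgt
The Pdgfra window held none of these motifs and contained a CA repeat of 46 bases, a run that 1090 of all 122375 windows (0.891%) and no other member window matched or exceeded. The Pdgfa promoter window, with 20 CpG dinucleotides, held CAGGTG at 2 places. The Pdgfc promoter window held 1 AP-1 motif, and the body window of Pdgfd held 2 adjacent AP-1 motifs. The flank window of Pdgfc and the promoter window of Pdgfd held no motif searched.

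Peaks lay almost entirely at the ligand genes. The 3 receptor genes had 2 peaks between them and the 4 ligand genes had 154. With flanks of 100 kb the receptor genes had 11, of which 10 were at Pdgfrb, and the ligand genes had 198. Pdgfc alone had 94 peaks, followed by Pdgfd with 28, Pdgfb with 18 and Pdgfa with 14. Pdgfra and Pdgfrb each had 1, and Kit had none. The median protein-coding gene had 7 peaks by the same rule. Counted as genes, 4 of 7 members had a promoter peak, against 45.6% of 21000 protein-coding genes. A peak at the promoter or in the gene body was listed for the same 4 genes, against 53.3%, and a peak in the gene or its flanks for 6 of 7, against 77.8%. None of these counts stands far from the share among all genes.

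**Figure D1:**
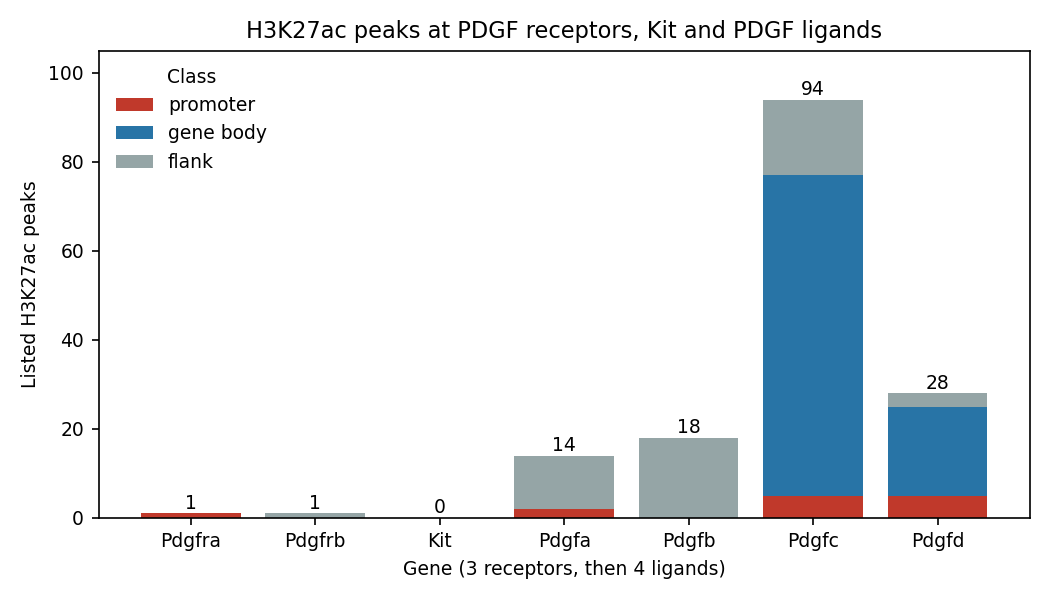
Number of listed H3K27ac peaks (y axis) at each gene (x axis) in the MCP library, with bar segments for promoter, gene body and flank peaks and the total above each bar. The 3 receptor genes have at most 1 peak, and Pdgfc has 94.

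The 156 peaks were mostly weak. Their median fold enrichment was 5.22, with a 95% order-statistic interval of 4.79 to 5.58, and the median of the whole list was also 5.22. Promoter peaks numbered 13 (8.33% of the member peaks, Wilson 95% interval 4.93 to 13.7), gene body peaks 92 (59.0%) and flank peaks 51 (32.7%). Both intervals treat the peaks as independent, although 94 of the 156 were at Pdgfc and many were close neighbors. They may therefore be too narrow. Over all protein-coding genes, 11.5% of the pairs of a peak and a gene were promoter pairs and 25.5% were gene body pairs. The larger body share of the members came from Pdgfc and Pdgfd, since Pdgfra, Pdgfrb, Kit, Pdgfa and Pdgfb had no gene body peak. The number of fragments over each summit, recovered from the listed values, ranged from 8 to 29, and 139 of the 156 peaks had under 20.

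**Figure D2:**
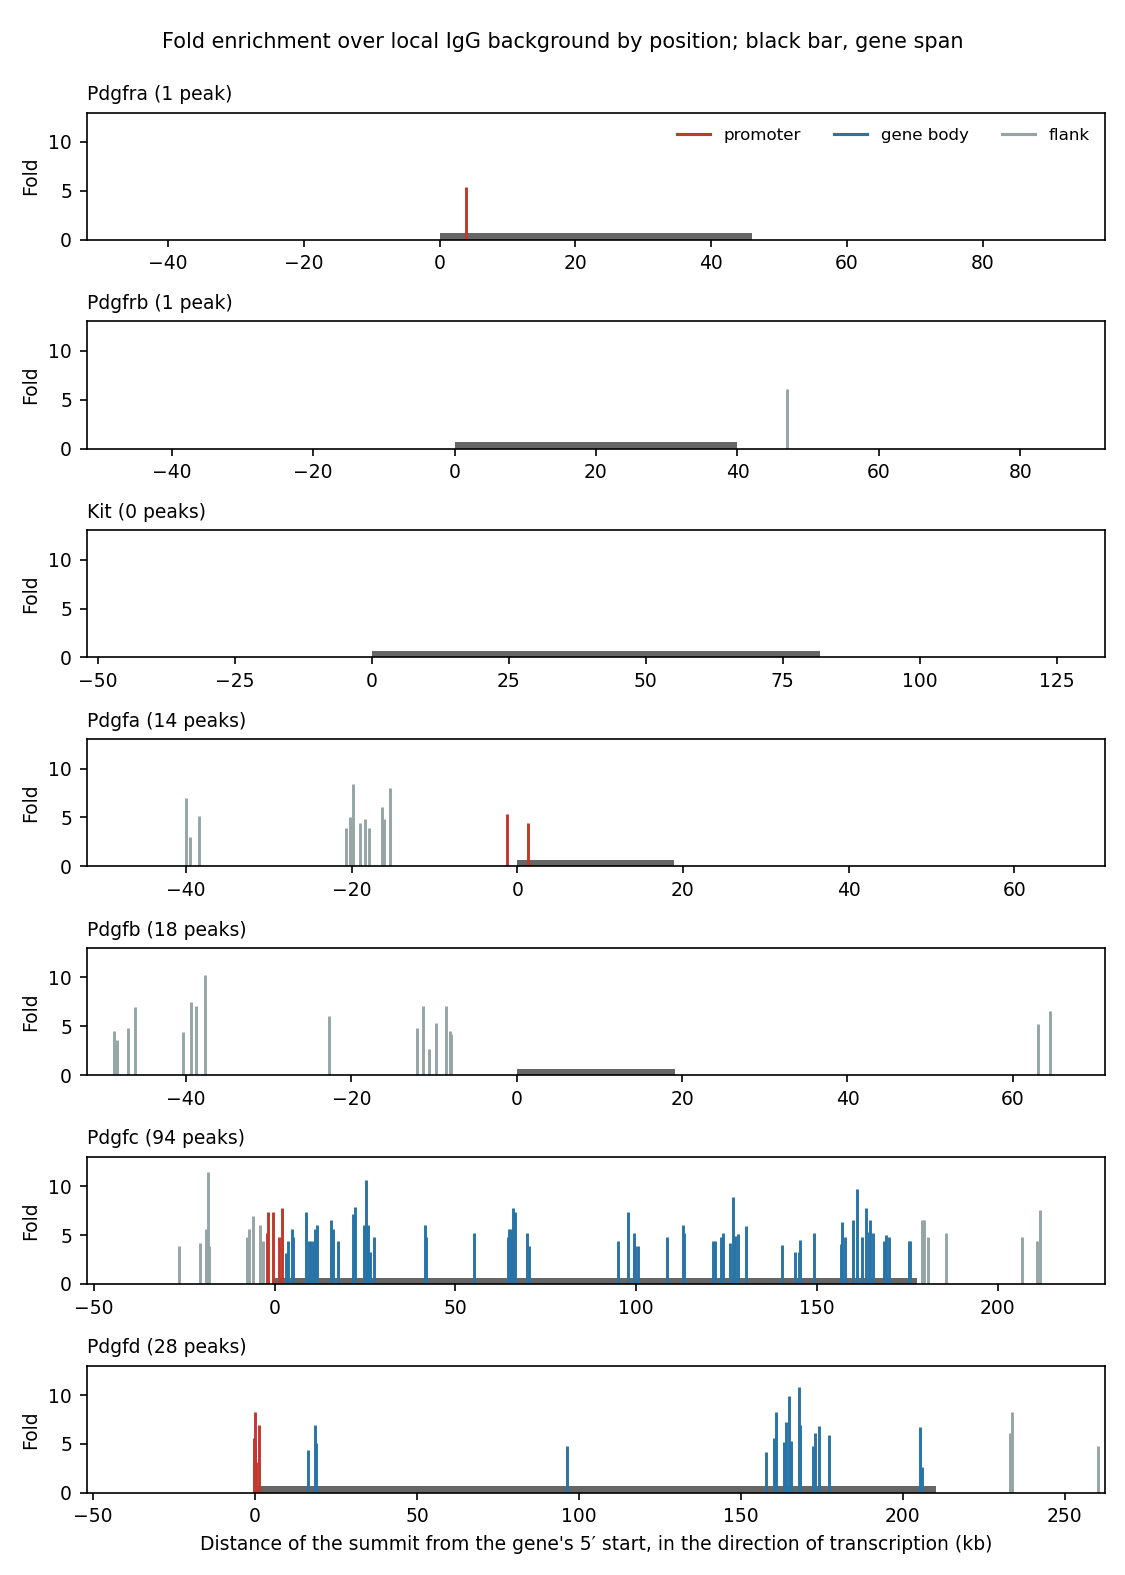
Fold enrichment over the local IgG background (y axis) of each peak against the distance of its summit from the 5′ start of the gene in the direction of transcription in kb (x axis), for the 7 genes with 50 kb either side, colored by class. The black bar is the gene span. Peaks lie along the Pdgfc gene in groups with gaps, cluster late in the Pdgfd gene, and at Pdgfa and Pdgfb lie mainly upstream.

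Pdgfra encodes PDGFRα. The gene lies at chr5:75152251-75198206 on the plus strand and has 3 start sites in the curated annotation. Its only peak, chr5:75156086-75156227, had its summit 29 bp upstream of the most downstream start site and 3.89 kb into the gene by the longest transcript, in intron 1. The fold enrichment was 5.35, with 12 fragments (exact Poisson 95% interval 6.20 to 21.0) over a width of 142 bp. This was close to the median peak of the list, which had 13 fragments. Neither of the upstream Pdgfra start sites had a peak within 2 kb. The nearest peaks outside lay 104.9 kb upstream of the gene and 117.7 kb downstream of it, so that the Pdgfra locus held 0.0685 peaks per 10 kb, a density below which 23.3% of protein-coding genes fell. The CA repeat in the sequence above lies within this peak window, and whether it affected read alignment was not tested.

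Kit encodes the stem cell factor receptor. No peak was listed in the gene, chr5:75574987-75656722, or in the 50 kb on either side. The nearest summits were 259 kb upstream of Kit and 484 kb downstream of it. The 825 kb between these summits is a long interval without a peak, since 438 of 122354 intervals between neighboring summits (0.358%) were as long and the median interval was 0.884 kb. Of these intervals, 31 were on chromosome 5. The Kit promoter is rich in CpG dinucleotides, with 76 in the 500 bp on either side of the start, and in the group of genes with a like number 71.3% had a promoter peak. In the corresponding groups, 28.2% of genes with a CpG content like that of Pdgfra or Pdgfrb had one. For Pdgfra this content was counted at its most upstream start site, and not at the start site that had the peak.

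The stretch from the Pdgfra locus to the Kit gene was also thin in peaks. Between the end of Pdgfra and the start of Kit, 377 kb apart, the list held a pair of peaks, chr5:75315707-75316119 with a fold enrichment of 9.96 (22 fragments) and chr5:75316272-75316574 with a fold enrichment of 8.51 (19 fragments). Both had a higher fold enrichment than the Pdgfra peak, although 19 fragments is within the interval of that peak. The nearer lay 117.7 kb beyond the end of Pdgfra and are outside the rule for both genes. The fixed 5 Mb block of the chromosome that holds Pdgfra and Kit had 0.192 peaks per 10 kb, against 0.450 over chromosome 5. Pdgfra lies near the upstream edge of this block, which therefore describes mainly the sequence downstream of the gene. Within the block the sparse region was wider than the receptor genes themselves. Upstream of Pdgfra, a group of peaks ended 104.9 kb from the gene.

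Pdgfrb encodes PDGFRβ. The gene, chr18:61045150-61085067 on the plus strand, had no peak in its promoter or body. A single flank peak, chr18:61091824-61092310, lay 7.02 kb past the end of the gene, between Pdgfrb and the colony-stimulating factor receptor gene Csf1r. Its fold enrichment was 6.08, with 13 fragments (6.92 to 22.2). Csf1r had no promoter peak either and had 8 peaks in its gene and flanks. The fixed 5 Mb block that holds Pdgfrb was not sparse, with 0.864 peaks per 10 kb against 0.420 over the chromosome. In a bulk tumor library, few cells with the mark and little of the mark in each cell cannot be told apart, and a site with fewer than 7 fragments was not listed at all. The low receptor counts therefore say that peaks were not detectable at this depth.

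Pdgfa encodes the A chain. Its gene, chr5:138976014-138994944 on the minus strand, had 2 promoter peaks, 1 on each side of its start. The upstream peak, chr5:138996067-138996337, had a fold enrichment of 5.35 with 17 fragments (9.90 to 27.2), and the peak in intron 1, chr5:138993448-138993836, had 4.46 with 14 fragments (7.65 to 23.5). All 12 flank peaks lay upstream, and no peak was found past the 3′ end. Of these, 9 formed a cluster of 5.75 kb at chr5:139010123-139015869, from 15.4 to 20.7 kb upstream of the start, whose strongest peak had a fold enrichment of 8.43 with 24 fragments (15.4 to 35.7). The cluster peaks of Pdgfa were thus stronger at their best than its promoter peaks, although the intervals of their fragment counts overlapped. This sets the highest of 9 peaks beside the highest of 2. The cluster also held peaks weaker than both promoter peaks, down to a fold enrichment of 3.92. The other 3 flank peaks of Pdgfa lay within Prkar1b, a gene for a regulatory subunit of protein kinase A. Pdgfa had 1.18 peaks per 10 kb and its 5 Mb block had 1.08, so the density of the locus was near that of its neighborhood.

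Pdgfb encodes the B chain, the ligand that recruits pericytes to vessels. The gene, chr15:79995865-80014977 on the minus strand, had no peak at its promoter or in its body, although its promoter held 50 CpG and 64.0% of genes with a like number had a promoter peak. All 18 peaks were in the flanks, 16 upstream and 2 downstream. The nearest summit was 7.94 kb upstream of the start and was the first of 7 peaks that reached to 12.1 kb upstream. The strongest peak, chr15:80052361-80053564, lay 37.6 kb upstream, spanned 1204 bp and had a fold enrichment of 10.2 with 23 fragments (14.6 to 34.5). The peak chr15:80024527-80025097 had the most fragments of any member, 29 (19.4 to 41.6), but a fold enrichment of 5.33 because its background was also high (4.00, against a lowest value of 1.05 at members). A predicted RefSeq transcript of Pdgfb starts inside that peak, at position 80024614 and 78 bp from its summit, and with predicted transcripts Pdgfb would count as having a promoter peak. The density at Pdgfb was 1.51 per 10 kb, against 0.550 over chromosome 15. The fixed 5 Mb block that holds the 3′ end of Pdgfb had 1.33. That block ends inside the gene and leaves out its start and the 16 upstream peaks, so it does not describe their neighborhood.

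Pdgfc encodes a ligand with a CUB domain that proteases must remove before it binds its receptor. The gene, chr3:81036416-81214040 on the plus strand, held 5 promoter, 72 gene body and 17 flank peaks. Its locus had 3.39 peaks per 10 kb, a higher density than 97.9% of protein-coding genes, and 77 of 21000 genes had as many peaks. The peaks covered 27.5 kb, or 9.91% of the locus. Neither the chromosome, with 0.423 peaks per 10 kb, nor the 5 Mb block, with 0.518, was dense. Since long genes hold more peaks, Pdgfc was also set beside the 2317 genes over 100 kb, a limit chosen after the values were seen. Its body held 4.05 peaks per 10 kb, against a median of 0.228 for these genes, and 97.3% of them had less.

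Body peaks were found in all 6 introns of Pdgfc. By summit, introns 1 to 6 held 37, 5, 12, 15, 3 and 2 peaks, and the density per intron ranged from 3.61 per 10 kb in intron 3 to 6.52 in intron 5. The 37 of intron 1 include 2 promoter peaks. The strongest body peak, chr3:81061700-81062131 in intron 1, had a fold enrichment of 10.6 with 24 fragments (15.4 to 35.7). A peak of intron 4, chr3:81196978-81198519, was 1542 bp wide with a fold enrichment of 9.67 and 26 fragments (17.0 to 38.1). The widest member peak, chr3:81058891-81061060, spanned 2170 bp of intron 1 and had a fold enrichment of 6.00. The strongest peak of all members lay 18.4 kb upstream of Pdgfc, at chr3:81017940-81018050, with a fold enrichment of 11.5 and 26 fragments (17.0 to 38.1). The promoter peaks of Pdgfc, from 4.79 to 7.80, did not reach the fold enrichment of its strongest body and flank peaks. The strongest of them, chr3:81038187-81039235, had 17 fragments (9.90 to 27.2). Against the typical Pdgfc peak they were not weaker. The median fold enrichment was 7.37 for the 3 upstream of the start and 6.30 for the 2 in intron 1. It was 5.19 over all Pdgfc peaks, and 4.36 to 5.22 for the body peaks of single introns. Of the 94 peaks, 62 stood on the lowest background in the list, as did 57.7% of all member peaks and 47.5% of the whole list.

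Pdgfd encodes the other ligand with a CUB domain. The gene, chr9:6168486-6378845 on the plus strand, held 5 promoter, 20 body and 3 flank peaks, and all 3 flank peaks lay downstream. The promoter peaks surrounded the start, and the strongest, chr9:6168331-6168422, had its summit 0.115 kb upstream with a fold enrichment of 8.24 and 18 fragments (10.7 to 28.4). This was the strongest promoter peak of the 7 genes. The body peaks of Pdgfd were uneven. Intron 1, at 120 kb the longest, held 5 summits or 0.418 per 10 kb, while intron 4, at 3.86 kb, held 3 or 7.78 per 10 kb. Of the 5 in intron 1, 1 was a promoter peak. Of the 20 body peaks, 14 lay in a cluster at chr9:6326195-6345588, across introns 3, 4 and 5, and the strongest, chr9:6336128-6336444, had a fold enrichment of 10.8 with 24 fragments (15.4 to 35.7). This is the window with 2 adjacent AP-1 motifs. An intron 1 peak, chr9:6264732-6265137, lay at the promoter of Ddi1, a gene nested in Pdgfd, and its fold enrichment was 4.79. The body of Pdgfd held 0.951 peaks per 10 kb, more than 76.0% of the genes over 100 kb.

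**Figure D3:**
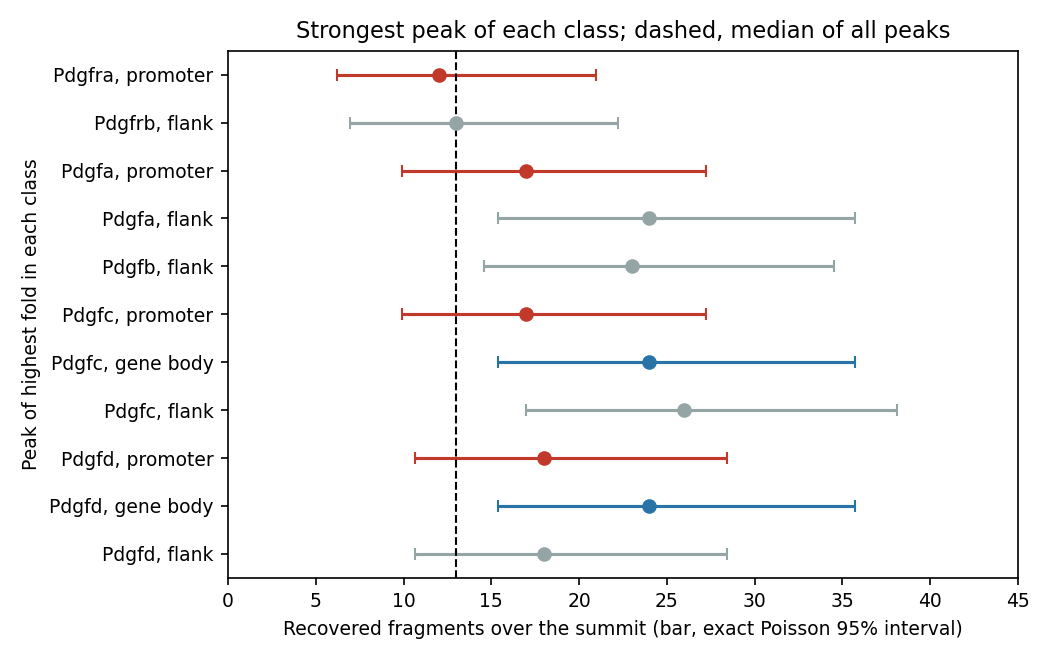
Recovered fragments over the summit (x axis) of the peak with the highest fold enrichment in each class at each gene (y axis), with exact Poisson 95% intervals as bars and the list median of 13 as a dashed line. The intervals of the Pdgfra and Pdgfrb peaks span the median, and the strongest body peaks of Pdgfc and Pdgfd, with 24 fragments each, lie above it. These body peaks were picked as the highest of 72 and 20, whereas Pdgfra and Pdgfrb had 1 peak each. The points are therefore not comparable between genes, and the intervals do not cover this choice.

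Peaks were also joined into clusters, with peaks within 1 kb of a start site left out and neighbors at most 12.5 kb apart stitched together, and clusters were ranked by their summed signal. Of the 20840 clusters, 864 were past the bend of the ranked curve, as in the calling of super-enhancers. A top cluster overlapped 1 of 7 members, against 4.37% of protein-coding genes. That member was Pdgfc, with a pair of top clusters, chr3:81131336-81222122 with 41 peaks over 90.8 kb at rank 478 and chr3:81009832-81063964 with 37 peaks over 54.1 kb at rank 698. The best cluster of Pdgfd, with its 14 peaks, ranked 1413, that of Pdgfb 2803 and that of Pdgfa 3649. No top cluster remained at Pdgfc when peaks with a -log10 q under 5 were left out, and with a stitching distance of 5 kb a top cluster also overlapped Pdgfd. Leaving out these peaks also changed the clusters and the bend of the curve for all genes, and Pdgfc kept 41 peaks. Whether the call at Pdgfc rests on its weak peaks was therefore not tested. The share of all genes under a top cluster was not computed in these settings.

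**Figure D4:**
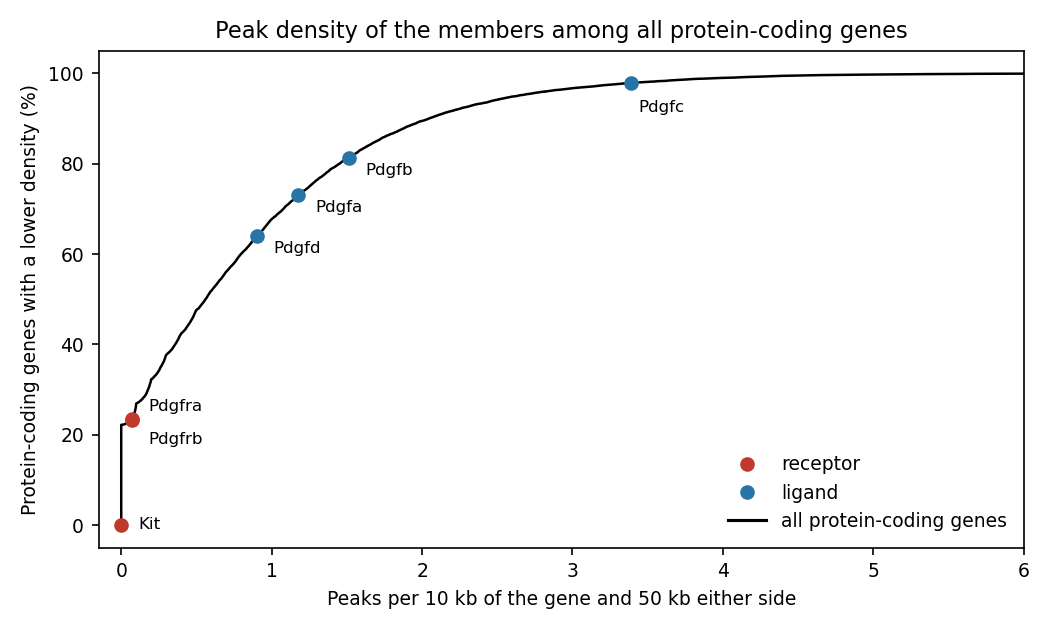
Share of protein-coding genes with a lower peak density (y axis, %) against peaks per 10 kb of the gene with 50 kb either side (x axis), as a line for all genes and points for the 3 receptor genes (red) and the 4 ligand genes (blue). Kit is at 0, Pdgfra and Pdgfrb are near 0.07, and the 4 ligand genes run from 0.902 at Pdgfd to 3.39 at Pdgfc; the x axis ends at 6.

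The motifs in the 300 bp around the summits were about as frequent at the members as over the list. CAGCTG was found in 16.7% of the member windows and 14.6% of all windows, CAGGTG in 15.4% and 16.7%, TGANTCA in 13.5% and 14.3%, and GGAATG in 18.6% and 16.8%. GTCACG was found in 2.56% of the member windows against 3.99%, GTAAACA in 7.05% against 4.92%, and TAATNNATTA in 1.28% against 0.650%, which is 2 member windows. Of the 94 Pdgfc windows, 21 held the TEAD motif, 14 held CAGGTG and 12 held the AP-1 motif. Of the 28 Pdgfd windows, 7 held CAGCTG, 6 the AP-1 motif and 4 the forkhead motif. Windows of close summits overlap, so the same motif can be counted at several peaks. The median GC content was 42.3% for the member windows and 45.3% for all windows. A match describes letters and not binding.

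Promoter peaks were common at other genes of the pathway. Of 47 genes listed for the pathway beside the members, 41 (87.2%) had a promoter peak, against 45.6% of all protein-coding genes. The 47 comprise other ligands, related receptors, coreceptors, proteases, adaptors, effectors and brakes. In the groups of genes richest in CpG, with 46 to 179 near the start, 64.0% to 73.1% had a promoter peak. The CpG content of the 47 was not matched. Among adaptors and effectors 26 of 27 had one, all but Stat5b, and all 8 brakes, such as the phosphatase gene Ptpn2 and the ubiquitin ligase gene Cbl, had one. The highest fold enrichments at these promoters were 290.4 at Nras, 14.3 at Rasa1, which encodes a GTPase-activating protein for RAS, and 13.7 at Ptpn2. The Nras peak stood apart from the list, in which the next highest fold enrichment was 30.6, and it was the 1 peak whose fragments could not be recovered. The median of the highest promoter fold enrichment was 6.66 over the pathway genes with a promoter peak and 7.24 over all such genes. The genes for proteases that can cleave PDGF-C and PDGF-D, Plat and Plau, and Furin, which processes pro-PDGF chains, each had a promoter peak, as did the coreceptor genes Nrp1 and Lrp1. Kitl, the ligand gene of Kit, had no listed peak in its gene or flanks, and neither did Pdgfrl, which encodes a PDGF receptor-like protein. The receptor genes Csf1r and Flt3, of the same family as Kit, had no promoter peak. Of the FGF receptor genes, a family of kinases with shared effectors, 1 of 4 had a promoter peak, and 60 of their 83 peaks were at Fgfr1. Most of these effectors are known to be expressed in many cell types.

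**Figure D5:**
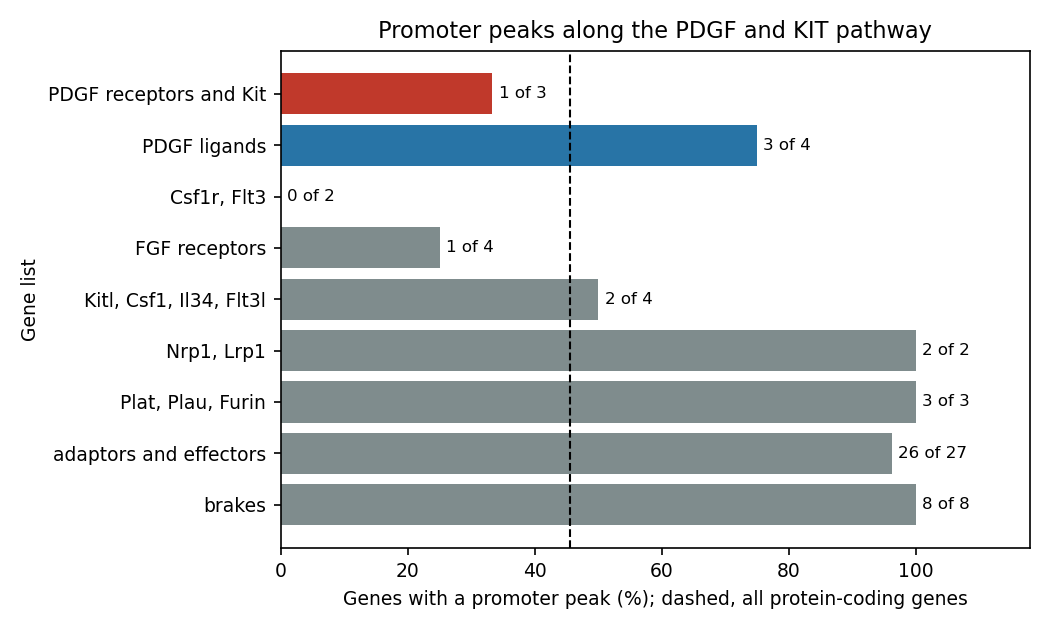
Share of genes with a promoter peak (x axis, %) in each list (y axis), with counts beside the bars and the share among all protein-coding genes, 45.6%, as a dashed line. Receptors are at 1 of 3 and PDGF ligands at 3 of 4, while 26 of 27 adaptors and effectors and 8 of 8 brakes have a promoter peak.

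Markers of the cell types in which PDGF receptors and Kit are usually found were examined as a check of the sample. Among all protein-coding genes, 45.6% had a promoter peak and 77.8% had a peak in the gene or flanks. The CpG content of the markers was not matched. No promoter peak was listed for any of 7 mural cell markers, although all 7 had a peak in the gene or flanks, with 39 at Cspg4. Of 7 fibroblast markers, 1 (Postn) had a promoter peak and 4 had any peak. The mast cell list had 1 of 7, Cma1, with a promoter peak and 2 of 7 with any, and Fcer1a, Cpa3 and Ms4a2 had no peak at all in the gene or flanks. The leukocyte list had 2 of 7, Cd14 and Cd68, with a promoter peak and 4 of 7 with any. The endothelial list had 0 of 7 with a promoter peak and 6 of 7 with any, among them Tek with 14 peaks in the gene body. The myogenic list also had 0 of 7 with a promoter peak and 5 of 7 with any. Myf5 had 28 peaks and Myod1 11 peaks, all in the flanks, whereas Myog and Pax7 had none in the gene or flanks. The promoters of the genes that usually mark this tumor thus had no listed peak in this library, as was the case for Pdgfrb and Kit. What share of the peaks came from which cell type was not tested.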

How the data were processed

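CUT&RUN libraries were made by the authors from sorted tumor cells, and peaks were called against IgG. The methods name bowtie and an early MACS release, whereas the submitters' processing notes name BWA, SAMtools and MACS2 and the list is named for MACS2, so which made the list, and with what threshold, is not known here. The largest q-value in it was 0.0471. For each peak the deposited list gives a score, a fold enrichment, the -log10 of its p-value and the -log10 of its q-value. The fold enrichment is a ratio at the summit over the local background, with a constant added to both terms. Peak numbers run to 122959, and 584 were absent, none around a member.

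Genes, start sites and introns were those of curated RefSeq transcripts on GRCm38, with 21000 protein-coding genes. Classes needed a 1 bp overlap. The whole number of fragments at each summit was recovered from the fold enrichment and p-value under the Poisson model of the caller. A whole number within 0.001 was found for 122374 of 122375 peaks, but for 0.0400% of them when the scale was 3% off. The median peak had 13 fragments and 84.2% had under 20. The H3K27ac library had 1.13 times the depth of its IgG, and its total depth is not given in the sources used here. The recovery, classes and stitching were tested on simulated data. Python 3.11.15, numpy 2.4.6, scipy 1.17.1 and pandas 2.3.3 were used. The text names all 7 members, the 3 pathway genes with the highest promoter fold enrichment, pathway genes with no peak, and genes whose promoter lies at a member with a peak. Genes named beyond these were chosen after their values were seen. The members and gene lists were chosen with earlier results of these data known. No test was run, since there is 1 library, and alternatives are given in the closing section.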

Additional observations from a re-analysis of the deposited data

How the results depend on the processing

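No paired analysis was possible because 1 library was used and no test was run. The number of peaks at the members was 156 and fell to 74 with a -log10 q of at least 5 and to 42 with the strongest 25% of the peaks. Their median fold enrichment of 5.22 became 6.58 and 7.37 in these subsets, which keep strong peaks by construction. Members with a promoter peak numbered 4, and 2 among the strongest 25%, namely Pdgfc and Pdgfd. Pdgfra had no peak in either subset, and Pdgfrb had its 1 flank peak in the former only. The members over a top cluster, 1 as reported, numbered 0 in both subsets and 2 with a stitching distance of 5 kb. The shares among all protein-coding genes were not computed in these settings. Whether they changed along with the member counts is therefore not known. Pdgfc had the most peaks in each setting, with 41 and 20 in the subsets. Of 28 planned values, 20 stayed within 1.5 times the count or within the interval of the main value, among them those by summit, with a promoter of 1 kb and with GENCODE start sites. The promoter share with a promoter of 1 kb was 5.13%, against 8.33%, near the lower end of that interval at 4.93%. The flank width changed single genes more than the total of 119 at 10 kb and 209 at 100 kb. With 10 kb Pdgfa had 2 peaks and Pdgfb 4, and with 100 kb Pdgfrb had 10, Pdgfa 22, Pdgfb 27 and Pdgfd 41. With predicted RefSeq transcripts, which were added as a setting after the data had been seen, Pdgfb also had a promoter peak (5 members), the count was 170, and Pdgfd had 42 peaks in place of 28. Depth limits each peak, since 139 of 156 had under 20 fragments.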
